A study of Mus musculus with 6 samples.

Results

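The G1 cell cycle regulators of peripheral nerve are described here as 10 genes: the Cip/Kip inhibitors Cdkn1a, Cdkn1b and Cdkn1c, the INK4 inhibitors Cdkn2c and Cdkn2d, the D-type cyclins Ccnd1, Ccnd2 and Ccnd3, and the kinases Cdk4 and Cdk6. They were taken by symbol, with earlier results of these data known, and all 10 were listed among the 24015 genes of the count tables. The filter on low counts kept 11371 genes, 9 of these 10 among them; Cdkn2d was not kept because it was listed at 0 in all 6 libraries. The study asked what the E3 ubiquitin ligase subunit Rnf40 contributes to Schwann cell development, and RNA of sciatic nerve was sequenced at postnatal day 14. The 3 control libraries came from Rnf40 fl/fl mice, and the 3 Rnf40ΔSC libraries from mice that carried Dhh::Cre on top of the same floxed alleles. The labels give a mixed 129SvJ/C57Bl/6J background for both groups. Dhh::Cre is active in the Schwann cell lineage, so Rnf40 stayed intact in the other cells of the nerve, the deletion takes out part of the gene, and each library was made from a pool of 3 nerves. Total counts were 1317167, 1992622 and 2468765 in control replicates 1 to 3 and 2184268, 1459387 and 2186710 in Rnf40ΔSC replicates 1 to 3.

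D-type cyclins bind Cdk4 or Cdk6, and the active kinase phosphorylates the retinoblastoma protein, which releases E2F factors and opens the way into S phase. INK4 proteins bind the kinases directly, while Cip/Kip proteins block the later Cdk2 complexes and also help cyclin D and Cdk4 to assemble. In the growing nerve, immature Schwann cells divide and leave the cell cycle as they begin to myelinate, a switch in which Cip/Kip inhibitors and D-type cyclins take part.

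Rnf40 itself had normalized read counts of 130, 126 and 142 in control nerves and 90.2, 90.4 and 94.2 in Rnf40ΔSC nerves. A normalized read count is the count divided by the library size after scaling by trimmed means (TMM) and brought to the mean library size. All Rnf40ΔSC libraries lay below all control libraries, and the fall of Rnf40 by 0.54 on the log2 scale (SE 0.14, edgeR quasi-likelihood test with Benjamini-Hochberg adjustment, adjusted p = 0.00242) fitted the labels. With total-count scaling its log2 fold change was -0.27 (adjusted p = 0.120; range over 15 alternatives 0.00235 to 0.120). The groups differed in composition: the 10 most abundant genes of a library took 21.0 to 22.1% of the counts in control nerves and 12.0 to 15.0% in Rnf40ΔSC nerves, and the TMM factors were 0.893 to 0.928 and 1.07 to 1.11. Scaling by total counts alone moved the median log2 fold change of all genes from -0.0026 to 0.27, and every fold change given here is relative to the TMM scale. The share of lower genes among all changed genes was 51.2% with TMM, 18.9% with total counts and 34.6% with total counts less the 10 most abundant genes, which moved the median of all genes by 0.12.

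Of the 9 tested genes, 1 fell and 0 rose at an adjusted p of at most 0.05 by edgeR, beside 16.2% and 15.4% of all tested genes. The gene that fell was Cdkn1b. At an unadjusted p under 0.05 the counts were 2 lower and 3 higher, 5 of 9 beside 41.0% of all tested genes, and DESeq2 at the adjusted limit gave the same numbers as edgeR, 1 lower and 0 higher, beside 21.6% of all tested genes in either direction. With total-count scaling 0 of the 9 fell and 5 rose in edgeR, where 880 of the 11371 genes fell and 3766 rose. With stricter limits (adjusted p up to 0.05, log2 fold change of 0.8 or more in size, mean of 20 or more TMM-normalized reads), 0 of the 9 genes passed in edgeR or DESeq2, where 5.05% of all tested genes passed as lower and 3.73% as higher. Ccnd3 passed those limits without control replicate 1 and with total-count scaling. In 2 genes, Cdkn1b and Ccnd2, all Rnf40ΔSC libraries were below all control libraries, and in 2, Cdk4 and Cdk6, all were above, beside 21.6% and 22.0% of all tested genes. The median log2 fold change was 0.07 over the 9 genes and -0.0026 over all tested genes. That of the 9 genes was 0.004 without control replicate 1, 0.22 without control replicate 3, 0.29 without Rnf40ΔSC replicate 3 and 0.34 with total-count scaling.

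**Figure D1:**
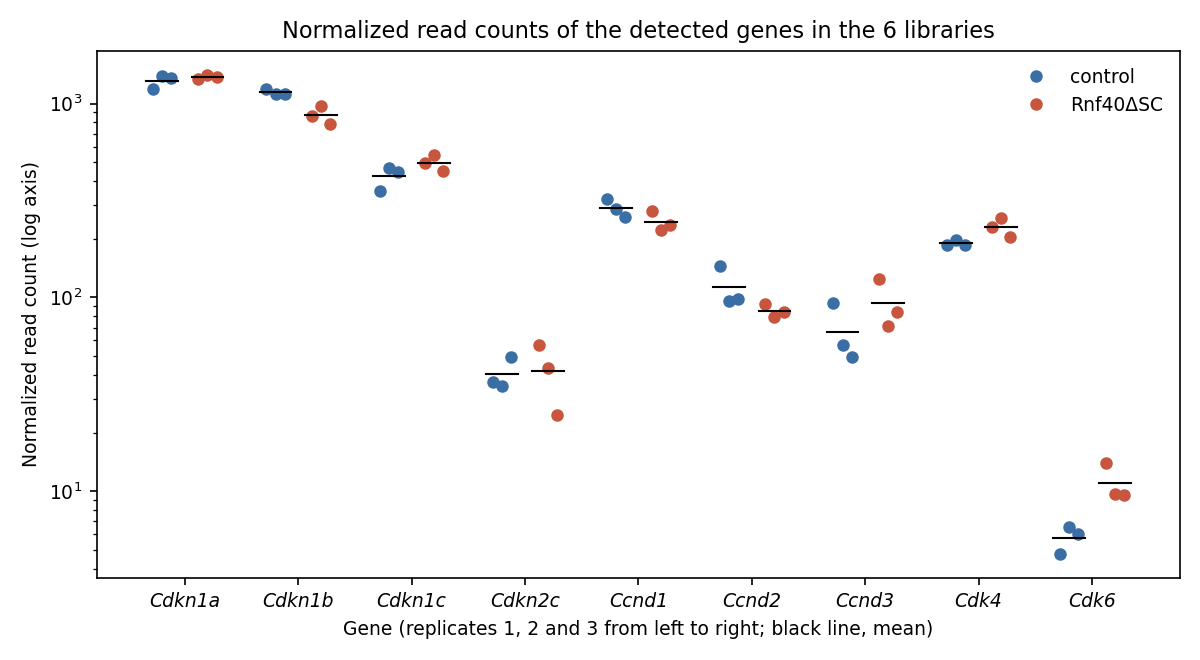
Normalized read counts (log axis) of the 9 detected genes in the 3 control (blue) and 3 Rnf40ΔSC (red) libraries; points are replicates 1 to 3 from left to right and black lines are group means. Cdkn1b lies between 1116 and 1189 in control nerves and between 787 and 967 in Rnf40ΔSC nerves; Ccnd1 is lower on this scale and higher with total-count scaling, and Cdkn2d, listed at 0 everywhere, is not drawn.

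Cdkn1b encodes p27, the inhibitor best known for holding differentiated cells out of the cycle, and lies on chromosome 6 (chr6:134870419-134875531, plus strand; all positions are on NCBIM37, the mm9 build). Its normalized read counts were 1189, 1116 and 1123 in control nerves and 859, 967 and 787 in Rnf40ΔSC nerves. The control libraries were high and close to one another, and the Rnf40ΔSC libraries were spread more widely below them without overlap. Cdkn1b fell by 0.39 on the log2 scale (SE 0.09, 95% interval -0.58 to -0.21, adjusted p = 0.000797 by edgeR), to 0.761 of the control level. The call held in 14 of 15 alternatives, with adjusted p from 0.000213 to 0.0139 by edgeR or DESeq2. The call for Cdkn1b was lost with total-count scaling, where the log2 fold change was -0.13 and the adjusted p was 0.278 by edgeR. Because it is the only one of the 9 genes past the limit in the main fit, the 250 bases before its RefSeq start (chr6:134870169-134870418, plus strand) are shown, with each CCAAT in capitals.
Cdkn1b: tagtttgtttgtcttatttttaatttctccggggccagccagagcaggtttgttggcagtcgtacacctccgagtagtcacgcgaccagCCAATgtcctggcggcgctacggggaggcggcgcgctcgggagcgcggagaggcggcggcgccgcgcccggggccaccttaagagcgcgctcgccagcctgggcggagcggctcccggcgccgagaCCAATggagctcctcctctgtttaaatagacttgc
CCAAT was searched on both strands and stands 161 and 35 bases before the start; 10.1% of 32851 RefSeq promoter windows of this length hold 2 or more copies and 33.8% at least 1. Reads from a nerve come from all its cells, so fewer cells of a type and less RNA per cell cannot be told apart in this or any other value given here.

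Cdkn1a encodes p21, the inhibitor that p53 switches on after DNA damage (chr17:29227924-29237667, plus strand). It had 1194, 1382 and 1354 normalized reads in control nerves and 1339, 1408 and 1376 in Rnf40ΔSC nerves. The groups overlapped, and the lowest library was control replicate 1. Its log2 change was 0.07 (SE 0.09, 95% interval -0.11 to 0.24, adjusted p = 0.590 by edgeR), an interval that leaves room for at most small changes on the TMM scale. With total-count scaling it was 0.34 with an adjusted p of 0.00140, the only one of 15 alternatives that passed (range 0.00140 to 0.978). Upstream of its first RefSeq start (chr17:29227674-29227923, plus strand) the window below holds ACATGTC, a sequence found within p53 response elements, and its reverse complement; the matches are in capitals and the window is shown because the p53 targets were counted beside Cdkn1a.
Cdkn1a: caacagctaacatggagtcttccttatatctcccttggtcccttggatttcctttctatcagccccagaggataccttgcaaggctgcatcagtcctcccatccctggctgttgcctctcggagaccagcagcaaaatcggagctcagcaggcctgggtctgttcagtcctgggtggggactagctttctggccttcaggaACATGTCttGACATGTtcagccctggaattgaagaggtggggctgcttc
The matches stand 49 and 40 bases before the start, and 1.62% of the RefSeq windows hold at least 1 and 0.201% 2 or more. The second RefSeq window of Cdkn1a held 0.

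Cdkn1c encodes p57, an imprinted inhibitor expressed from the maternal copy and known to restrain Schwann cell differentiation (chr7:150644255-150646955, minus strand). Control nerves had 352, 465 and 445 normalized reads and Rnf40ΔSC nerves 494, 541 and 448. Control replicate 1 was lowest, and Rnf40ΔSC replicate 3 was inside the control range, so the groups overlapped. Cdkn1c had a log2 fold change of 0.22 (SE 0.10, 95% interval 0.01 to 0.43, adjusted p = 0.0985 by edgeR) and did not pass. It passed with total-count scaling (0.49, adjusted p = 0.000211), with upper-quartile scaling (0.26, 0.0485), with total counts less the 10 most abundant genes (0.34, 0.00798), and without Rnf40ΔSC replicate 3 (0.29, 0.0183), and over all alternatives the adjusted p ran from 0.000211 to 0.470. The lowest log2 fold change, 0.12, was that without control replicate 1 (adjusted p = 0.470 by edgeR). Of the other imprinted genes listed, 8 of 20 tested fell and 2 rose, beside 16.2% and 15.4% of all tested genes: Igf2, Gnas, Osbpl5 and Grb10 fell by 0.63, 0.63, 0.77 and 0.58 on the log2 scale, and Peg10 and Mest had log2 fold changes of 1.20 and 0.29. The adjusted p of Mest, 0.0170 by edgeR, rose above the limit without control replicate 2, without control replicate 3 and without Rnf40ΔSC replicate 1, to at most 0.152 (range over alternatives 2.12e-05 to 0.152). The median of that list was -0.25 with TMM and 0.02 with total-count scaling, which gave 5 lower and 5 higher. With 1 library left out 6 to 10 of the list fell and 1 to 2 rose, 6 without Rnf40ΔSC replicate 2 and 10 without Rnf40ΔSC replicate 3 being the lowest and highest number that fell.

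Cdkn2c encodes p18, an INK4 inhibitor of Cdk4 and Cdk6 (chr4:109333481-109339794, minus strand). It had 36.5, 34.9 and 49.1 normalized reads in control nerves and 57.1, 43.4 and 24.7 in Rnf40ΔSC nerves. The Rnf40ΔSC libraries held both the highest and the lowest value, so there was no direction to read. The log2 fold change was 0.02 (SE 0.25, 95% interval -0.50 to 0.54, adjusted p = 0.959 by edgeR), and it turned to -0.31 without Rnf40ΔSC replicate 1, to -0.08 without control replicate 2 and to -0.03 without control replicate 1. Adjusted p in the alternatives lay between 0.290 and 1.00. Counts were 23 to 69 a library, and a change within that interval was not detectable.

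Cdkn2d encodes p19, the INK4 inhibitor present in many postmitotic cells, and was listed at 0 counts in all 6 libraries. Its place in the assembly bears on that value. The annotated gene lies at chr9:21092907-21095653 on the minus strand, but its upstream window was found at a second place on the same chromosome (chr9:123836610-123836859, plus strand), and 1123 of the 1173 runs of 50 bases within its exons, 95.7%, also occur elsewhere in NCBIM37. Counting kept uniquely aligned reads, so nearly every read of that length from Cdkn2d would have matched more than 1 place in this assembly; the value is reported only as listed at 0 and says nothing about expression. Among the other 9 genes this share was 14.8% in Ccnd3, 3.11% in Cdk6, 1.66% in Cdk4 and 0 in the rest. Gapdh and Ppia, which every cell uses, had 0 to 4 and 0 to 3 counts a library, with 50.2% and 17.1% of their runs found elsewhere. The window of Cdkn2d is shown as RefSeq gives it.
Cdkn2d: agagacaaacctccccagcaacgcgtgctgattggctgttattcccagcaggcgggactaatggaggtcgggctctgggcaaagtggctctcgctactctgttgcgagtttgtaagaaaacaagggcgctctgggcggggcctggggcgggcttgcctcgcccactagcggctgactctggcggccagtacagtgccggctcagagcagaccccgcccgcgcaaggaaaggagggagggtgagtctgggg
The INK4 genes outside the set were near the floor: Cdkn2a had 1 count in control replicate 2 and 0 in the other libraries, and Cdkn2b had 4 to 11 counts. A floor of 3 counts corresponded to 2.39 to 4.76 normalized reads, and it covers counting error only.

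Ccnd1 encodes cyclin D1, which follows mitogen signals and is the D-type cyclin linked to Schwann cell division after nerve injury (chr7:152115836-152125774, minus strand). It had 321, 284 and 260 normalized reads in control nerves and 279, 222 and 237 in Rnf40ΔSC nerves. Rnf40ΔSC replicate 1 lay within the control range, and the other Rnf40ΔSC libraries lay below it. On the log2 scale the difference was -0.21 (SE 0.11, 95% interval -0.43 to 0.01, adjusted p = 0.137 by edgeR) and turned to 0.05 with total-count scaling (adjusted p = 0.731; range over alternatives 0.0684 to 0.731). Ccnd1 shares 21.3% of its exon bases with Oraov1 on the other strand; Oraov1 had 13 to 26 counts a library against 184 to 337 for Ccnd1.

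Ccnd2 encodes cyclin D2 (chr6:127075797-127101066, minus strand). Control nerves had 146, 95.9 and 98.1 normalized reads and Rnf40ΔSC nerves 92.7, 79.5 and 84.6. Control replicate 1 stood above the rest, and the groups did not overlap although the gap was only from 92.7 to 95.9. The log2 fold change was -0.36 (SE 0.16, 95% interval -0.69 to -0.04, adjusted p = 0.0789 by edgeR) and did not pass in any of 15 alternatives (adjusted p 0.0544 to 0.664). Without control replicate 1 it was -0.18 (adjusted p = 0.477).

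Ccnd3 encodes cyclin D3, the D-type cyclin often retained in differentiated cells (chr17:47642000-47736632, plus strand). It had 93.7, 56.7 and 49.1 normalized reads in control nerves and 124, 71.1 and 84.6 in Rnf40ΔSC nerves. Replicate 1 was the highest library of each group, and control replicate 1 lay above 2 of the 3 Rnf40ΔSC libraries. The log2 fold change was 0.57 (SE 0.25, 95% interval 0.03 to 1.10, adjusted p = 0.0985 by edgeR), and the coefficient of variation was 35.9% among control and 29.6% among Rnf40ΔSC libraries, against 3.54% and 10.4% for Cdkn1b. It passed without control replicate 1 (0.84, adjusted p = 0.00401), without Rnf40ΔSC replicate 2 (0.72, 0.0288), without the low-count filter (0.58, 0.00589), with total-count scaling (0.83, 0.0119) and with a replicate block (0.51, 0.0174), in a range over alternatives of 0.00401 to 0.337. Without Rnf40ΔSC replicate 1 the log2 fold change was 0.31 and without control replicate 3 it was 0.37, and neither passed. Ccnd3 shares 15.7% of its exon bases with Bysl on the other strand, and without strand the reads of the overlap cannot be told apart. Bysl had 13 to 46 counts and a value of 0.68 on the log2 scale, which did not pass (adjusted p = 0.0523 by edgeR); it passed in 5 of 15 alternatives, without Rnf40ΔSC replicate 1 (0.80, adjusted p = 0.0467), with at least 10 counts in every library, and with upper-quartile scaling, total counts and total counts less the 10 most abundant genes (range over alternatives 0.00542 to 0.265).

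Cdk4, the main kinase partner of the D-type cyclins, had 186, 198 and 186 normalized reads in control nerves and 231, 257 and 205 in Rnf40ΔSC nerves (chr10:126500590-126504976, plus strand). The control libraries were close together and all Rnf40ΔSC libraries lay above them, the nearest being Rnf40ΔSC replicate 3. Cdk4 had a log2 fold change of 0.27 (SE 0.11, 95% interval 0.05 to 0.50, adjusted p = 0.0591 by edgeR), just outside the limit. Cdk4 passed without Rnf40ΔSC replicate 3 (0.36, adjusted p = 0.0117), with upper-quartile scaling (0.31, 0.0301), with at least 10 counts in every library (0.29, 0.0444), with total counts less the 10 most abundant genes (0.39, 0.00556) and with total counts (0.54, 0.000201), in a range of 0.000201 to 0.226. Cdk4 shares 18.6% of its exon bases with Tspan31 on the other strand. Tspan31 had 139 to 274 counts and a log2 value of 0.10 (adjusted p = 0.540 by edgeR), and passed only with total-count scaling (0.37, adjusted p = 0.0111). The window before the start of Cdk4 (chr10:126500341-126500590, plus strand) is shown for its E-boxes (CACGTG, in capitals), which Myc family proteins bind, since Mycn was among the factors that rose.
Cdk4: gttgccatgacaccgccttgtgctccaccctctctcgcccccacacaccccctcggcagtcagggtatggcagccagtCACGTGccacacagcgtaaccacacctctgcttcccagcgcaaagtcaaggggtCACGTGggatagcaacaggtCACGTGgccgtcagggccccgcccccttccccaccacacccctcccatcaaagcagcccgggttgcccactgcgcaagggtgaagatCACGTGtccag
It holds 4 copies of CACGTG, 172, 118, 98 and 11 bases before the start; 6.02% of the RefSeq windows hold at least 1, 0.429% 2 or more, and 7 of 32851 windows 4 or more. The window of Cdk6 holds 1. Whether Myc family proteins bind these windows or act on Cdk4 was not tested.

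Cdk6, the second D-type cyclin kinase (chr5:3343893-3523218, plus strand), was close to the floor with 3, 6 and 7 counts in control nerves and 17, 8 and 12 in Rnf40ΔSC nerves. As normalized reads these were 4.76, 6.54 and 6.03 against 14.1, 9.64 and 9.58, and the groups did not overlap. The log2 fold change of 0.91 had a 95% interval of -0.04 to 1.87 (SE 0.47, adjusted p = 0.124 by edgeR). It passed only with total-count scaling (1.18, adjusted p = 0.0339; range over 14 alternatives 0.0339 to 0.367).

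**Figure D2:**
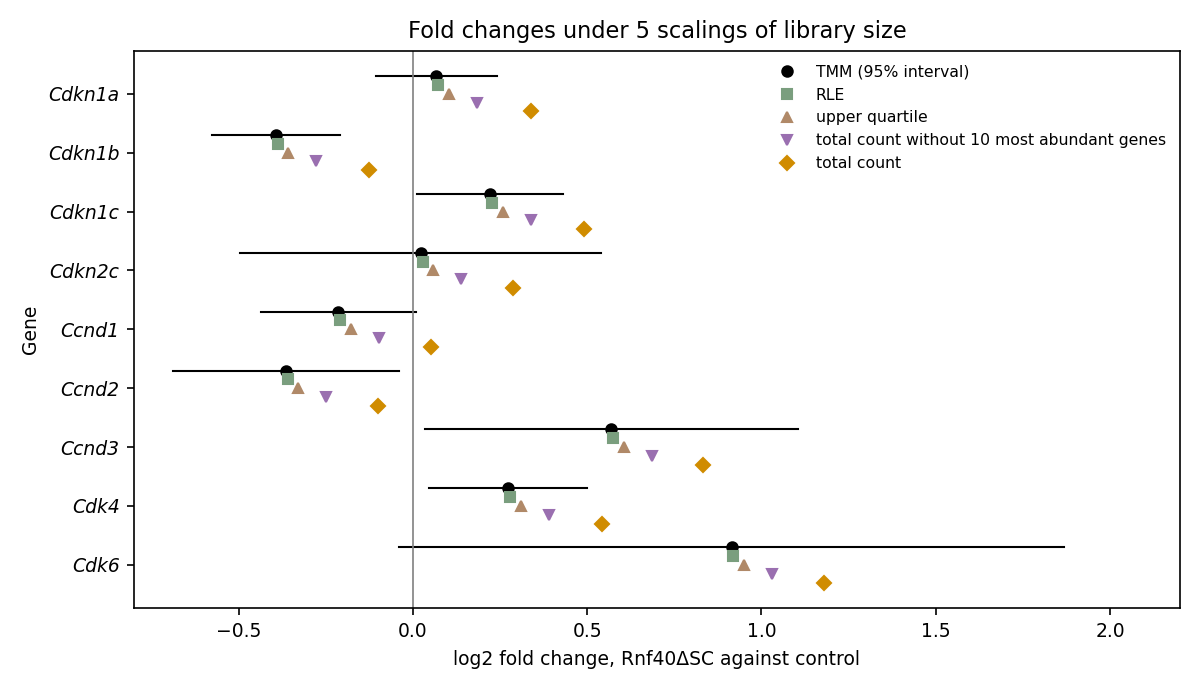
Log2 fold change of each gene (Rnf40ΔSC against control) with TMM scaling and its 95% interval (black), and under 4 other scalings. Every gene moves to the right with total-count scaling, Cdkn1b from -0.39 to -0.13 and Ccnd1 from -0.21 to 0.05, while RLE scaling stays close to TMM.

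Levels of different genes were compared per kilobase of exon. The lengths were not corrected for exon runs found elsewhere in the assembly, 14.8% in Ccnd3, 3.11% in Cdk6 and 1.66% in Cdk4. Nor were they corrected for exon bases shared with genes on the other strand, 21.3% in Ccnd1, 18.6% in Cdk4 and 15.7% in Ccnd3. The order and the shares below carry this limit. In control nerves the order was Cdkn1a (589 ± 45.6 normalized reads per kb, SD, n = 3), Cdkn1b (251 ± 8.89), Cdkn1c (218 ± 31.1), Ccnd1 (75.2 ± 7.98), Cdk4 (58.5 ± 2.21), Ccnd3 (29.5 ± 10.6), Ccnd2 (19.9 ± 4.97), Cdkn2c (14.9 ± 2.89) and Cdk6 (1.55 ± 0.244). Neighbours kept this order in every control library, except that Cdkn2c (18.3 per kb) stood above Ccnd2 (17.2) in control replicate 3; the ranges of Ccnd3 and Ccnd2 over the control libraries also overlapped. In Rnf40ΔSC nerves Cdkn1c (256 ± 24.0 per kb, SD, n = 3) stood above Cdkn1b (191 ± 19.9), without overlap, and Cdk4 (71.1 ± 7.95) and Ccnd1 (64.1 ± 7.73) overlapped. The summed level of the Cip/Kip inhibitors per kb was 1058 ± 67.8 in control and 1066 ± 53.5 in Rnf40ΔSC nerves, and that of the D-type cyclins 125 ± 23.2 and 121 ± 21.1 (SD, n = 3). Those of Cdk4 and Cdk6 together were 60.0 ± 2.40 and 74.0 ± 7.99 per kb. These sums hold on the TMM scale only: with total-count scaling, added after seeing the data, they were 961 ± 46.5 and 1165 ± 64.4 for the Cip/Kip inhibitors, 113 ± 22.8 and 131 ± 20.7 for the D-type cyclins and 54.5 ± 1.25 and 80.9 ± 8.49 for the kinases.

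Shares within a family do not depend on how libraries are scaled, and they were described without a test. They add up to the whole family in each library, so a lower share of 1 gene raises the others. The shares of a family are therefore not separate results. Cdkn1b made up 26.6%, 22.1% and 22.7% of the Cip/Kip reads per kb in control nerves and 18.0%, 18.9% and 16.9% in Rnf40ΔSC nerves. Its share was lower in every Rnf40ΔSC library than in any control library, by 5.91 percentage points on average. Cdkn1c made up 18.6%, 21.8% and 21.2% against 24.5%, 24.9% and 22.7%, and Cdkn1a 54.8%, 56.1% and 56.1% against 57.5%, 56.2% and 60.4%, both higher without overlap, Cdkn1a by as little as 56.2% against 56.1%. Among the D-type cyclins, Ccnd3 made up 27.5%, 21.6% and 20.4% in control nerves and 38.2%, 30.5% and 32.9% in Rnf40ΔSC nerves. This share was higher in all Rnf40ΔSC libraries, by 10.7 percentage points on average, although its normalized reads overlapped between the groups. Ccnd2 made up 17.0%, 14.5% and 16.1% against 11.3%, 13.5% and 13.0%, lower without overlap, and Ccnd1 55.5%, 63.9% and 63.5% against 50.5%, 56.0% and 54.1%, where control replicate 1 lay within the Rnf40ΔSC range. Cdk6 was 2.18 to 2.79% of the reads per kb of both kinases in control and 3.16 to 5.03% in Rnf40ΔSC nerves. Leaving out any 1 library kept the sign of each of these differences, but that of Cdkn1a, 2.42 percentage points on average, was 1.24 without Rnf40ΔSC replicate 3 and 3.34 without Rnf40ΔSC replicate 2, and that of Cdk6, 1.46 percentage points from 3 to 17 counts a library, was 0.963 without Rnf40ΔSC replicate 1.

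**Figure D3:**
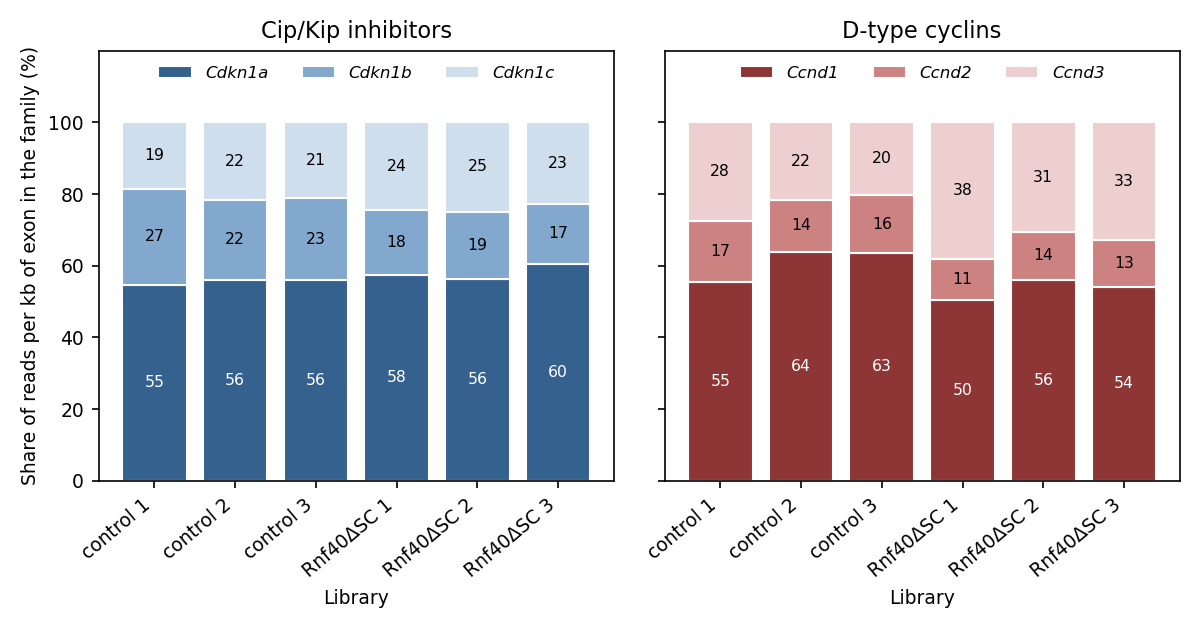
Share of each gene in the reads per kb of exon of its family (%) for every library, Cip/Kip inhibitors on the left and D-type cyclins on the right. The Cdkn1b share lies between 22.1% and 26.6% in control and between 16.9% and 18.9% in Rnf40ΔSC libraries, and the Ccnd3 share between 20.4% and 27.5% and between 30.5% and 38.2%.

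Downstream of the kinases, none of the 3 pocket proteins passed by edgeR with TMM (0 at an unadjusted p under 0.05, 0 by DESeq2). With total-count scaling 1 rose, Rbl2 (0.30, adjusted p = 0.0266 by edgeR), and the list median moved from 0.03 to 0.30. The retinoblastoma gene Rb1 had 125, 222 and 242 counts in control and 226, 155 and 260 in Rnf40ΔSC nerves, and Rbl1 14, 16 and 21 against 31, 22 and 24. Among 9 E2F and DP factors 1 rose and 0 fell, beside 15.4% and 16.2% of all tested genes. With total-count scaling 3 rose and 0 fell, and the median moved from 0.007 to 0.27. The factor that rose with TMM was Tfdp2, a partner of E2F in DNA binding, by 0.47 on the log2 scale (adjusted p = 0.0130 by edgeR). Its call was lost without control replicate 3, without Rnf40ΔSC replicate 2 and in DESeq2 (up to 0.119). E2f1 had 6, 5 and 16 counts in control nerves and 11, 7 and 11 in Rnf40ΔSC nerves. Of 12 later cyclins and kinases 1 fell and 0 rose, beside 16.2% and 15.4% of all tested genes. The 1 that fell was Cdk7, the kinase that activates other CDKs, by 0.36 on the log2 scale (adjusted p = 0.0314 by edgeR, 0.0228 to 0.607 over 15 alternatives). The call was lost in 8 of the alternatives, among these control replicate 2, control replicate 3 and Rnf40ΔSC replicate 3 left out (-0.26, -0.38 and -0.25). The median of the later cyclins and kinases was -0.03 with TMM and 0.24 with total-count scaling, which gave 0 lower and 1 higher. With 1 library left out it ran from -0.16 without control replicate 2 to 0.14 without Rnf40ΔSC replicate 1. With upper-quartile scaling and with a replicate block it was 0.002. Cdk1, the mitotic kinase, had 10, 13 and 22 counts against 26, 18 and 24. Of the E-type cyclins, which follow cyclin D, Ccne1 had 3, 6 and 12 against 7, 6 and 8 counts and was under the filter, and Ccne2 had 13, 22 and 18 against 12, 9 and 15, with a log2 fold change of -0.85 that did not pass (adjusted p = 0.0630 by edgeR).

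Genes that E2F switches on for S phase and genes of mitosis are given by their counts and medians, without a test of the lists. Of 18 S phase genes (1 more was left out) 3 rose and 0 fell by edgeR (0 lower at an unadjusted p under 0.05 and 0 by DESeq2), beside 15.4% and 16.2% of all tested genes, with a median log2 fold change of 0.24 (0.15 without control replicate 2, 0.40 without control replicate 1): Mcm2 and Mcm7 of the replication helicase (0.96 and 0.73) and the chromatin assembly subunit Chaf1b (1.08). Of these 3, Mcm2 passed in all 15 alternatives. Mcm7 was lost without control replicate 2 (0.63) and Chaf1b with any of the 6 libraries left out (0.88 to 1.19); DESeq2 gave 1 call in the list, total-count scaling 6 (median 0.51) and total counts less the 10 most abundant genes 5, all higher. The number that rose was 1 without control replicate 2, 3 without Rnf40ΔSC replicate 3, where 1 fell, and 2 without any other library. Of 26 mitotic genes 6 rose and 1 fell, beside 15.4% and 16.2% of all tested genes, with a median of 0.48. With total-count scaling 10 rose (median 0.74), where 3766 of all 11371 tested genes rose. With total counts less the 10 most abundant genes 8 rose, beside 34.4% of all tested genes called in either direction. In DESeq2 4 rose, beside 21.6%. In each of these fits 1 mitotic gene fell. Mki67, the proliferation marker, had 57, 73 and 122 counts in control and 161, 96 and 224 in Rnf40ΔSC nerves (log2 fold change 0.64, adjusted p = 0.00140 by edgeR), and Top2a, which untangles DNA before mitosis, 28, 56 and 55 against 86, 74 and 103 (0.65, 0.00561). As normalized reads, the Rnf40ΔSC libraries were all above the control libraries for both genes. Kif20a and Tpx2 of the spindle had log2 fold changes of 1.10 and 0.85, and Anln of the cleavage furrow fell by 0.89; without control replicate 2, Tpx2 no longer passed (0.59, adjusted p = 0.0835; range 0.00036 to 0.0835) and 3 mitotic genes rose.

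**Figure D4:**
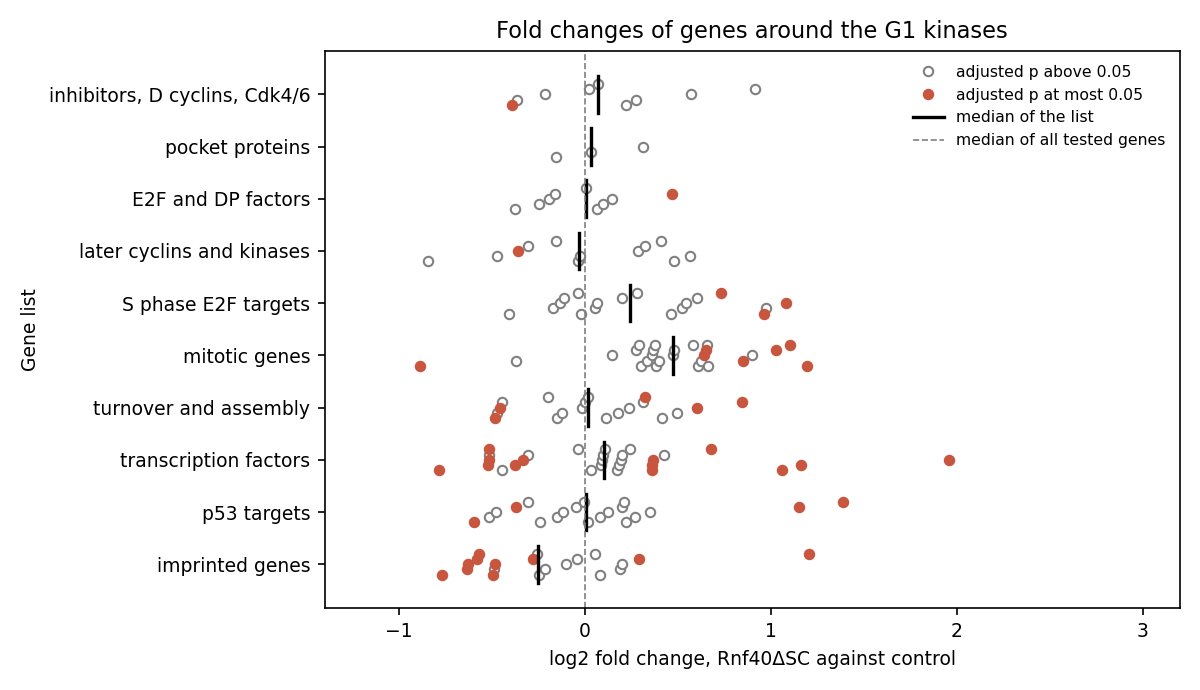
Log2 fold change of every tested gene (Rnf40ΔSC against control) in the 9 regulators and in 9 further lists; filled points passed an adjusted p of 0.05, black bars are list medians and the dashed line is the median of all tested genes. The mitotic genes have the highest list median, 0.48, and that of the 9 regulators is 0.07; with total-count scaling the medians of later cyclins and of imprinted genes turn positive.

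Of 19 genes that act on the turnover and assembly of the regulators 3 rose and 2 fell (median 0.02), beside 15.4% and 16.2% of all tested genes, against 8 and 0 with total-count scaling. Without Rnf40ΔSC replicate 3, 5 of the 19 fell and 3 rose, and with any other library left out 1 to 2 fell and 2 to 3 rose. Gsk3b, which by phosphorylation marks cyclin D1 for export and degradation, rose by 0.85 on the log2 scale (adjusted p = 1.64e-08 by edgeR), with 188, 274 and 305 counts in control and 615, 471 and 586 in Rnf40ΔSC nerves. The ubiquitin ligase genes Cul1 and Fbxw7 followed with 0.32 and 0.60. Cryab, which with an F-box protein is linked to cyclin D1 ubiquitination, fell by 0.46, and Rnf123, a subunit of the ligase that acts on p27 in G1, fell by 0.48. The calls of Cul1, Fbxw7 and Rnf123 were lost in DESeq2; without control replicate 3, Cul1 and Rnf123 no longer passed, without Rnf40ΔSC replicate 2, Fbxw7 and Rnf123, and without control replicate 1, Fbxw7 (adjusted p up to 0.151, 0.103 and 0.263 over all alternatives). Skp2, which brings p27 to the SCF ligase, had 10, 17 and 16 counts against 16, 13 and 18.

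Of 28 transcription factors known to act on D-type cyclin or inhibitor genes, 7 rose and 6 fell (median 0.10), beside 15.4% and 16.2% of all tested genes, against 15 and 1 with total-count scaling; with 1 library left out 4 to 6 fell and 7 rose, or 5 rose without control replicate 3. Sox2 and Notch1, regulators of immature Schwann cells, had log2 fold changes of 1.96 and 1.06, and Tead1 and Ctnnb1 0.37 and 0.36. Sox10, the factor that defines the Schwann cell lineage, fell by 0.79, Nab1, a partner of Egr proteins in myelination, by 0.52, the Tead partner Yap1 by 0.38 and the hedgehog factor Gli1 by 0.52; without Rnf40ΔSC replicate 2 Yap1, and without Rnf40ΔSC replicate 1 Gli1, no longer passed (adjusted p = 0.0598 and 0.0555 by edgeR; ranges 0.00233 to 0.473 and 0.00507 to 0.195). Mycn had 6, 22 and 13 counts in control and 35, 33 and 43 in Rnf40ΔSC nerves, all Rnf40ΔSC libraries being higher (log2 fold change 1.16, adjusted p = 0.00329 by edgeR; 0.0531 without control replicate 3, range 0.000292 to 0.0531), and Myc 15, 17 and 42 against 25, 24 and 45 with a log2 fold change of 0.09. Beside Cdkn1a, 20 p53 targets were tested, of which 2 rose and 2 fell (median 0.004), beside 15.4% and 16.2% of all tested genes, against 7 and 1 with total-count scaling. Plk2 and Ddit4l had log2 fold changes of 1.15 and 1.39, and Ccng1 and Sesn1 fell by 0.60 and 0.37; Sesn1 no longer passed without Rnf40ΔSC replicate 2 (adjusted p = 0.0659 by edgeR; range 0.00439 to 0.463). Trp53 had 65, 95 and 124 counts against 121, 90 and 154, and Mdm2, which marks p53 for degradation, 88, 164 and 186 against 224, 143 and 243 (log2 fold changes 0.08 and 0.20). Neither passed with TMM; with total-count scaling both did (adjusted p = 0.0491 and 0.00176 by edgeR), and Mdm2 also with total counts less the 10 most abundant genes, while without control replicate 1 Mdm2 was at 0.12.

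Many cell type markers moved with genotype and stand beside every value above. The Schwann cell lineage list lacks 1 abundant gene that was left out, so its sum is no measure of Schwann cell RNA and is not given. Of its 13 other genes 8 fell and 5 rose, or 8 and 4 without control replicate 3, beside 16.2% and 15.4% of all tested genes in the main fit. The fibroblast list (Col3a1 highest) summed to 106635 ± 4423 and 76237 ± 2217 (SD, n = 3), the perineurial list to 2147 ± 151 and 1231 ± 107, of which Itgb4 alone made up 897 ± 73.9 and 277 ± 39.2, the endothelial list (Cdh5) to 1906 ± 163 and 1386 ± 142, the pericyte and smooth muscle list (Pdgfrb) to 2307 ± 302 and 1503 ± 256, the macrophage list (Csf1r) to 1182 ± 44.1 and 834 ± 21.1, the T, B and mast cell list (Cpa3) to 158 ± 26.0 and 98.5 ± 10.3 and the adipocyte list (Fabp4) to 4894 ± 1291 and 3136 ± 249. In these lists 9 of 13, 5 of 9, 7 of 14, 6 of 10, 8 of 15, 3 of 5 and 5 of 10 tested genes fell and 0 rose by edgeR, beside 16.2% and 15.4% of all tested genes. At an unadjusted p under 0.05, 0 were higher, and 0 rose by DESeq2, by which 8, 4, 5, 6, 4, 1 and 6 fell. With 1 library left out 8 to 9, 4 to 5, 5 to 8, 6 to 9, 4 to 8, 1 to 3 and 4 to 6 fell; 4 macrophage genes fell without control replicate 2, and 1 gene of the T, B and mast cell list without control replicate 3. With total-count scaling 6, 3, 2, 4, 2, 2 and 4 of them fell, and 1 fibroblast and 1 endothelial gene rose. Of all 11371 tested genes 880 fell and 3766 rose on that scale. Of the markers found in the tables, Cd79a alone was at 0 in every library. Which cells the Itgb4 reads came from was not tested, so the perineurial sum cannot be read as perineurial RNA alone. Skeletal muscle RNA, led by Myh4, summed to 8376, 6295 and 4744 in control nerves but to 184, 457 and 6004 in Rnf40ΔSC replicates 1, 2 and 3. So Rnf40ΔSC replicate 3 resembled control nerves in muscle content and the other Rnf40ΔSC libraries did not; 0 of 14 muscle genes passed by edgeR or DESeq2, and 0 at an unadjusted p under 0.05 (median log2 fold change -1.34), but without Rnf40ΔSC replicate 3, 13 of the 14 fell (median -4.25). Without Rnf40ΔSC replicate 3 the log2 fold change of Cdkn1b was -0.32 and still passed, the smallest of the values with 1 library left out (-0.47 to -0.32). Of these 6 fits, the one without Rnf40ΔSC replicate 3 was the only one in which Cdk4 and Cdkn1c passed. The part of these cell types in the values of the 9 genes was not tested.

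**Figure D5:**
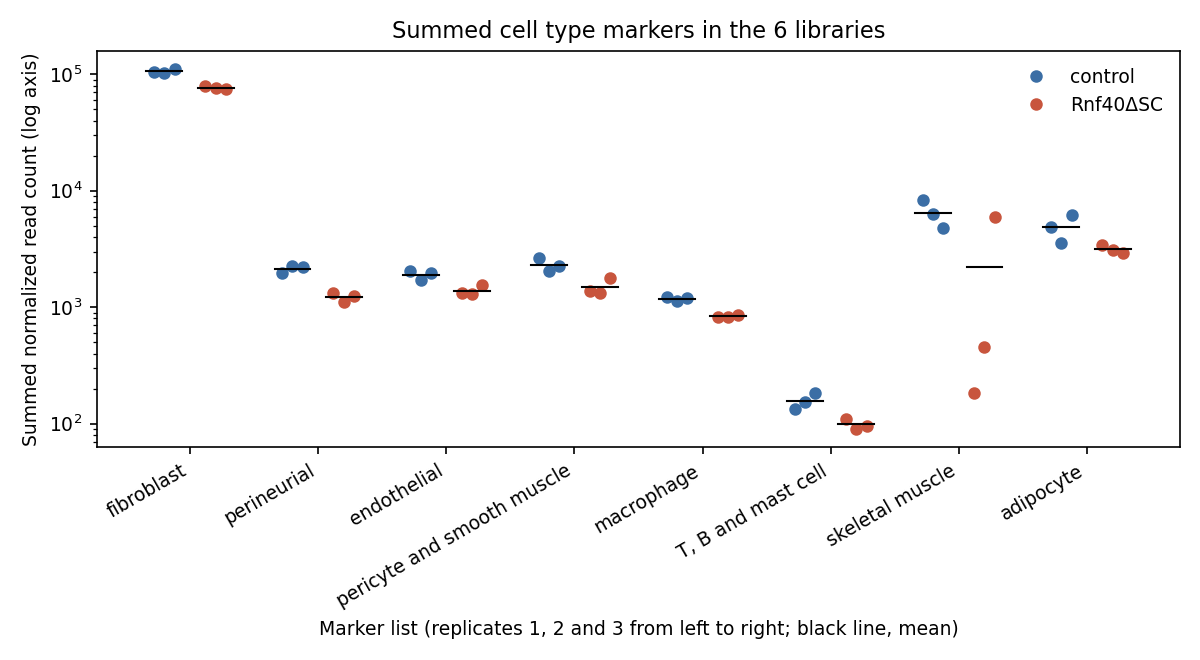
Summed normalized read counts (log axis) of 8 marker lists in the 3 control (blue) and 3 Rnf40ΔSC (red) libraries, with group means as black lines. The Schwann cell lineage list is not drawn, since it lacks 1 abundant gene; muscle RNA is low in Rnf40ΔSC replicates 1 and 2 only.

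Over the 6 libraries, the genes whose log2 levels followed Cdkn1b most closely among 9335 genes with at least 20 normalized reads were Fndc1 (Pearson r = 0.997), Rab8b (0.989) and Bad (0.988). The libraries fall into the same 2 groups for all of them, and the values are given only as a description. Fndc1 and Rab8b fell by 0.66 and 0.66 on the log2 scale; Bad had a log2 fold change of -0.71 with an adjusted p of 0.0714 by edgeR (0.0457 to 0.254 over alternatives).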

How the data were processed

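RNA-seq was made from sciatic nerves of 3 control and 3 Rnf40ΔSC pools at postnatal day 14, which the labels call biological replicates. The authors aligned reads to mm9 with TopHat, counted uniquely aligned reads per gene with HTSeq and deposited the raw counts; whether counting used strand is not given in the sources used here. The labels name another library kit and strain background than the study's methods, and list Bowtie2 and both mm9 and mm10; the strain is given as in the labels and the build was taken as mm9.

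Counts were tested with edgeR 4.0.16 (R 4.3.3, limma 3.58.1; filterByExpr, TMM, robust quasi-likelihood fit, genotype only) and Benjamini-Hochberg adjustment over 11371 genes. The fit was tested on simulated data. Standard errors and 95% intervals came from the same fit, without adjustment, and never assumed less than counting error. Lengths per kb are exon unions of GENCODE vM1. RefSeq (GRCm38.p6) held promoter windows for 7 of the 10 genes, which were placed on NCBIM37 by exact match. No other entry was used. Each window was searched for E-box, CCAAT, GC box, E2F, EGR and p53 half-site motifs, and the motif put in capitals was picked for each gene. The Cdkn1b and Cdk4 windows held 0 E2F and 0 EGR motifs. An EGR motif stood 44 bases before 1 start of Cdkn2c, and 3.06% of the RefSeq windows hold at least 1. Replicates of a group differed by more than sampling noise (chi-square per degree of freedom 1.78 to 5.21).

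The 10 genes and all lists were chosen with earlier results of these data known, and 1 gene was later left out of each of the Schwann cell and S phase lists. Named genes were the 10, Rnf40, up to 4 changed genes with the smallest p in each direction of every list, a set of 13 cell cycle genes given with counts, and the 3 genes closest to the member that fell most. The genes overlapping Ccnd1, Ccnd3 and Cdk4, and Rbl2, Gapdh and Ppia, were added after their values were seen. Alternatives were RLE, upper-quartile and total-count scaling, DESeq2 1.42.0 with and without a prior on fold changes, other low-count filters, a replicate block and each library left out; total counts less the 10 most abundant genes, and total-count scaling of the family sums, were added after seeing the data.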

Additional observations from a re-analysis of the deposited data

How the results depend on the processing

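Over 15 alternatives, Cdkn1b, Rnf40, Sox10, Mki67 and Top2a kept their direction, and of these Cdkn1b and Rnf40 failed the limit with total-count scaling only (Cdkn1b -0.13). With total-count scaling 880 genes were lower and 3766 higher (TMM 1841 and 1756), 263 and 1020 with the stricter limits (574 and 424), and 5 of the 9 genes passed, all higher: Cdkn1a 0.34, Cdkn1c 0.49, Ccnd3 0.83, Cdk4 0.54 and Cdk6 1.18; Ccnd1 turned to 0.0529, Rb1 to 0.11, E2f1 to 0.10 and Skp2 to 0.12, none of these passing. Upper-quartile scaling called 3 of the 9 (Cdkn1c 0.26, Cdk4 0.31), beside 32.2% of all tested genes. Total counts less the 10 most abundant genes, chosen after seeing the data, also called 3 (Cdkn1c 0.34, Cdk4 0.39, with 34.6% of calls lower), beside 34.4% of all tested genes. No low-count filter called 2 (Ccnd3 0.58), beside 22.0% of all genes in that fit. At least 10 counts in every library called 2 of 8 (Cdk4 0.29), beside 34.9% of all genes in that fit, and Cdk6 then had no value. Leaving out 1 library called 1 to 3 of the 9 genes, beside 23.5% to 34.0% of all genes in those fits. The ranges were 0.12 to 0.30 for Cdkn1c, 0.31 to 0.84 for Ccnd3, 0.20 to 0.36 for Cdk4 and -0.31 to 0.33 for Cdkn2c, which turned to -0.03, -0.08 and -0.31 without control replicate 1, control replicate 2 and Rnf40ΔSC replicate 1. Among genes that did not pass in the main fit, E2f1 turned to 0.29 without control replicate 3 (range with 1 library left out -0.45 to 0.29), Myc to -0.13 and -0.14 without control replicate 2 and Rnf40ΔSC replicate 3 (-0.14 to 0.45), Trp53 to -0.0026 without Rnf40ΔSC replicate 3 (-0.0026 to 0.16), Rbl2 to -0.0024 without control replicate 2 (-0.0024 to 0.0767) and Tspan31 to -0.0478 without Rnf40ΔSC replicate 2 (-0.0478 to 0.22). Of these, Trp53, Rbl2 and Tspan31 passed with total-count scaling. Over all tested genes, the correlations of deviations between same-numbered libraries were -0.0948, -0.0150 and -0.0621. Whether same-numbered libraries share a batch was not tested. A replicate block called 2 of the 9 genes (Ccnd3 0.51, adjusted p = 0.0174 by edgeR, range 0.00401 to 0.337). It turned Cdkn2c to -0.0381 and called 31.3% of all genes against 31.6% without it. The shares kept their direction; that of Cdkn1a, 2.42 percentage points higher per kb, was 4.70 higher from raw counts, and that of Ccnd1 was -4.00 from raw counts and -7.41 per kb. With total-count scaling the difference of the summed D-type cyclins (Rnf40ΔSC less control, normalized reads per kb) turned from -4.03 to 18.1. Of 71 named genes past the limit, 44 passed in every alternative in which they had a value and 53 with any 1 library left out. The cause was not tested. Cdk6, Cdkn2c, E2f1 and Ccne1 had under 70 counts a library; the part of depth in their values was not tested.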

Other observations

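The marker lists held these changed genes. In the Schwann cell lineage, Pou3f1 (2.05 on the log2 scale), Ncam1 (1.16) and Mpzl1 (1.16) rose beside Sox2, while L1cam fell by 1.87, Cdh19 by 1.20 and S100b by 0.89, beside Sox10. Col1a2, Col3a1, Pi16 and Mfap5 of fibroblasts fell by 0.66, 0.49, 0.90 and 0.62, and Itgb4, Slc2a1, Msln and Ntn4 of the perineurial list by 1.69, 0.66, 1.22 and 0.79. In vessels, Cdh5, Pecam1, Eng and Cldn5 fell by 0.51, 0.44, 0.74 and 1.12, and Pdgfrb, Abcc9, Tagln and Cspg4 by 0.65, 0.71, 0.63 and 0.55. The macrophage genes Csf1r, C1qa, Cd68 and Mrc1 fell by 0.63, 0.61, 0.81 and 0.47, the mast cell genes Cpa3, Tpsb2 and Mcpt4 by 1.03, 1.05 and 1.15, and the adipocyte genes Lpl, Plin1, Adipoq and Pck1 by 0.66, 1.31, 0.68 and 0.90. With total-count scaling Ntn4, Cdh5, Pecam1, Cspg4, C1qa, Mrc1, Mcpt4 and Adipoq no longer passed. Without control replicate 3, Cd68, Tpsb2, Mcpt4 and Adipoq no longer passed, without control replicate 2 or Rnf40ΔSC replicate 2 Mcpt4, and without Rnf40ΔSC replicate 1 Ntn4. Pck1 fell by 0.60 without control replicate 3 and still passed. In DESeq2, Tpsb2 and Mcpt4 did not pass.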
